A study of Homo sapiens with 4 samples.

Results

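The pooled knockout library of this screen held 50 entries of 1 sgRNA each, whose gene field reads HGLibA_ followed by a number instead of a gene symbol. They were taken by that prefix and made up 50 of the 7142 sgRNAs (0.700%), next to 7092 sgRNAs that target 1773 metabolic genes at 4 per gene. They close the numbering of the library as sgRNA_7093 to sgRNA_7142, in the same order as HGLibA_14096 to HGLibA_14145. The sources used here do not say what these entries target, or whether they target anything, and their sequences were not analysed here. HGLibA identifiers are also used by the human GeCKO knockout library, and no source used here says whether these sgRNAs came from it.

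In a pooled knockout screen each cell carries an sgRNA that guides the Cas9 nuclease to a site in the genome, and the share of that sgRNA among the sequenced reads follows the share of cells that carry it. An sgRNA whose cut harms growth or survival becomes scarcer, and an sgRNA without such an effect keeps its share apart from drift and sampling. Screens often list sgRNAs outside the gene set one by one, for example non-targeting controls, and read the noise of the screen from them. Whether the HGLibA_ entries had this role was not stated, so they are described here only by their counts.

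The cells were HCT116, an established human colon carcinoma line, which in every group carried the library by lentivirus and had been through puromycin selection. The selected cells then made up 1 group with PBS and 3 groups with oxaliplatin at 10 µM, all for 7 days. The sgRNA region was amplified from genomic DNA of the surviving cells. Oxaliplatin is a platinum compound used against colorectal cancer that forms DNA crosslinks. No library from before the treatment was analysed here, so abundance at the start and change during the 7 days cannot be told apart. The study's methods describe PBS or oxaliplatin given to cells after selection, and say in general terms that experiments were repeated independently. Whether 1 selected population was divided among the groups was not settled here. The spread between these libraries may therefore be technical.

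Total counts were 8934799 in the library labelled PBS and 27563013, 10494731 and 11146921 in oxaliplatin replicates 1, 2 and 3. Both the PBS library and oxaliplatin replicate 1 stood apart from the rest. PBS had 0 counts for 19.1% of the gene-targeting sgRNAs, against at most 2.31% in each oxaliplatin library, and in oxaliplatin replicate 1 the most abundant 1% of sgRNAs held 27.5% of all counts, against 7.46% to 9.02% elsewhere. Counts of calls and median fold changes are therefore also given without replicate 1, and levels are given for each library.

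The HGLibA_ entries were more abundant than the gene-targeting sgRNAs in all 4 libraries. Levels are given as CPM, counts scaled to a library total of 1000000. In PBS the median entry had 194 CPM and the median gene-targeting sgRNA 72.9 CPM, a ratio of 2.67. The ratio of medians was 5.48 in oxaliplatin replicate 1 (96.0 against 17.5 CPM), 3.05 in replicate 2 (200.2 against 65.7 CPM) and 2.80 in replicate 3 (218 against 78.1 CPM). As a difference of medians of log2(CPM + 1), this was 1.40 in PBS and 1.82 ± 0.50 (SD, n = 3) in the oxaliplatin libraries. The PBS difference was the lowest of the 4 but close to those of replicates 3 and 2 (1.47 and 1.59), with replicate 1 at 2.38, and an exact two-sided permutation test over libraries gave p = 0.5, where 4 libraries allow no p under 0.25. All 4 libraries may stem from the same transduced cells, so they cannot be taken as independent evidence of the starting abundance.

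The same contrast appeared in the summed counts. The 50 entries held 1.32% of the counts in PBS (95% Wilson interval 1.31 to 1.33), and 1.44% (1.44 to 1.45), 1.38% (1.38 to 1.39) and 1.46% (1.46 to 1.47) in oxaliplatin replicates 1, 2 and 3, against 0.700% of the sgRNAs. The intervals cover counting error only, because the reads came from PCR and the study's methods describe no molecular identifiers. Per sgRNA, the mean count of the entries was 1.90, 2.08, 1.99 and 2.11 times that of the gene-targeting sgRNAs in the same order of libraries. Without the 3 most abundant entries of each library the ratio was 1.62 in PBS. In oxaliplatin replicates 1, 2 and 3 it was 1.18, 1.73 and 1.90. In replicate 1 the 3 entries left out held 46.7% of the counts of the 50. No gene-targeting sgRNA was left out, so these ratios do not compare the classes on equal terms. The ratio of medians was highest in replicate 1, at 5.48.

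Few entries were scarce. In PBS 1 entry of 50 was at 0 counts (2.00%) and 6 had fewer than 10 counts (12.0%), whereas 1353 gene-targeting sgRNAs (19.1%) were at 0 and 2136 (30.1%) had fewer than 10. In the oxaliplatin libraries the lowest entry had 42 counts in replicate 1, 100 in replicate 2 and 528 in replicate 3. Of the gene-targeting sgRNAs, 9.43%, 2.34% and 0.536% had fewer than 10 counts in these libraries. At the other end, 26, 26, 28 and 32 of the 50 entries lay in the range of the top 25% of gene-targeting sgRNAs in PBS and in oxaliplatin replicates 1, 2 and 3. Taken library by library, 41, 41, 46 and 48 of the 50 entries were above the gene-targeting median in the same order. The entries above it in all 4 libraries at once were 34 (68.0%), against 26.7% of gene-targeting sgRNAs. Only 1 entry (2.00%) was above it in none of the 4 libraries, against 27.3% of gene-targeting sgRNAs. Among the 1773 genes, 44 (2.48%) had a median over their 4 sgRNAs at or above the median entry in all 4 libraries.

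The gap narrowed when scarce sgRNAs were set aside. Among sgRNAs with at least 100 counts in PBS, 43 entries and 4816 gene-targeting sgRNAs, the difference of medians on the log2(CPM + 1) scale was 0.66 in PBS and 1.87, 1.23 and 1.04 in oxaliplatin replicates 1, 2 and 3. The minimum was set on the PBS counts themselves, so the narrowing in PBS cannot be compared with that in the oxaliplatin libraries. The sgRNAs just before the entries in the numbering had lower medians than the entries in every library. The 50 gene-targeting sgRNAs numbered just before the entries, sgRNA_7043 to sgRNA_7092, had median levels of 48.97, 29.6, 54.3 and 59.2 CPM in PBS and oxaliplatin replicates 1, 2 and 3, which was above the median of all gene-targeting sgRNAs in replicate 1 (17.5 CPM) and below it elsewhere, and 19 of them had fewer than 10 counts in PBS. Within the entries, the first 25 and the last 25 by number were at medians of 167 and 196 CPM in PBS, 87.8 and 106 CPM in replicate 1, 150.5 and 224 CPM in replicate 2 and 213 and 221 CPM in replicate 3.

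Against both lists of metabolic genes chosen for comparison, the entries also lay high. Core essential enzymes are those most dividing cells require, such as the ribonucleotide reductase subunit RRM1, the thymidylate synthase TYMS and the glycolytic enzyme GAPDH, and the 120 sgRNAs of 30 such genes had medians of 40.1, 6.17, 50.7 and 60.0 CPM in PBS and oxaliplatin replicates 1, 2 and 3. Tissue-restricted enzymes work mainly in particular tissues or cell types, such as the tyrosinase TYR of pigment cells and the rod phosphodiesterase subunit PDE6A. The 112 sgRNAs of 28 such genes had medians of 87.9, 25.4, 80.3 and 104 CPM. The entries, at 194, 96.0, 200.2 and 218 CPM, had higher medians than both lists in every library. No test over sgRNAs was made of these differences.

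By the SD, the entries were spread less widely than the gene-targeting sgRNAs. The SD of log2(CPM + 1) over the 50 entries was 2.73 in PBS, 2.33 in oxaliplatin replicate 1, 1.35 in replicate 2 and 1.01 in replicate 3, against 3.40, 2.87, 2.21 and 1.89 over the gene-targeting sgRNAs. The median SD among the 4 sgRNAs of one gene was 3.46, 2.54, 1.81 and 1.51, so in each library the 50 entries varied among themselves by less than the sgRNAs of the median gene did. Between the 10th and the 90th percentile of the entries lay 8.22-fold in replicate 2 and 6.18-fold in replicate 3, but 54.6-fold in replicate 1, where the corresponding spans of the gene-targeting sgRNAs were 70.2-fold, 33.3-fold and 737-fold. In PBS the span of the entries was wider still, 1387-fold, and that of the gene-targeting sgRNAs started at 0.

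In PBS the entries formed a scarce set and a well-counted set with nothing between. The 7 scarcest had 0 to 46 counts, and the remaining 43 had 520 to 8796 counts. Gene-targeting sgRNAs were also few between, at 140 with 10 to 99 counts, beside 2136 under 10 and 4816 with at least 100. Those under 50 counts in PBS were 31.2% of their class, against 14.0% of the entries. The 7 scarce entries had medians of 50.8, 132 and 149 CPM in oxaliplatin replicates 1, 2 and 3, with 2 of them under 4 CPM in replicate 1, and their levels overlapped those of the other 43 entries, whose medians were 106, 224 and 223 CPM.

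The scarcest entry was HGLibA_14145, with 0 counts in PBS, which allows up to 0.336 CPM (3 counts), and 2.98, 35.4 and 47.4 CPM in oxaliplatin replicates 1, 2 and 3. Against a floor of 3 counts in PBS, and with each pair of libraries scaled by the median of their count ratios, it was at least 29.2-, 136- and 166-fold higher in replicates 1, 2 and 3. It was the only entry under the gene-targeting median in all 4 libraries, and its edgeR adjusted p of 0.0566 did not pass the threshold of 0.05.

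HGLibA_14135 had 1 count in PBS (0.112 CPM) and 9.40, 75.4 and 79.7 CPM in oxaliplatin replicates 1, 2 and 3. The ratios to PBS were 276 (95% exact counting interval 49.2 to 10959.6), 873 (156 to 34513) and 840 (150.3 to 33209), intervals that a single count leaves very wide. HGLibA_14119 had 3 counts in PBS (0.336 CPM) and 3.95, 128 and 104 CPM, so it was low in both PBS and replicate 1. Its ratios were 38.8 (12.9 to 191), 493 (168 to 2393) and 364 (124 to 1770). With HGLibA_14145 these were the 3 least abundant entries over the 4 libraries.

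HGLibA_14096 also had 3 counts in PBS but was far more abundant with oxaliplatin, at 50.8, 272 and 378 CPM in replicates 1, 2 and 3. Its ratios were 498 (170 to 2418), 1050.3 (359 to 5096) and 1329 (454 to 6446). HGLibA_14101 had 4 counts in PBS (0.448 CPM) and 87.8, 132 and 159 CPM, with the most even oxaliplatin levels of the entries under 10 counts. Its ratios were 646 (252 to 2373), 383 (149 to 1408) and 419 (163 to 1539). HGLibA_14133, likewise with 4 counts in PBS, had 1612 CPM in replicate 1 but 182 and 149 CPM in replicates 2 and 3, so its level in replicate 1 stood far from those of the other oxaliplatin libraries. The ratios of HGLibA_14133 were 11854 (4629 to 43507), 528 (206 to 1940) and 392 (153 to 1442). HGLibA_14113 had 46 counts in PBS (5.15 CPM) and nearly equal oxaliplatin levels of 320.03, 347 and 354 CPM. Rises of this size were not particular to the entries. Over gene-targeting sgRNAs under 50 counts in PBS the median of the mean log2 fold change was 7.46, against 8.19 over the 7 such entries.

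Fold changes of oxaliplatin over PBS were taken per sgRNA as log2 of the scaled counts plus 1, and all 3 comparisons share the PBS library. Over the 50 entries the median was 0.27, 0.14 and 0.37 in replicates 1, 2 and 3. Over the gene-targeting sgRNAs it was 0.88, 0.47 and 0.42. Taking the mean over the 3 libraries for each sgRNA first, the entries had a median of 0.08 and the gene-targeting sgRNAs 0.48, a difference of -0.41. That difference turned to 0.34 among sgRNAs with at least 30 counts in PBS (44 entries). Of the gene-targeting sgRNAs under 50 counts in PBS, 98.5% were above 0 in all 3 comparisons, as were all 7 such entries. With scaling to total counts the median entry was at -0.70, while the difference between the classes stayed at -0.41.

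Among the 43 well-counted entries the mean fold change ranged from -3.55 to 3.10 with a median of -0.13, where the gene-targeting sgRNAs with at least 50 counts in PBS had a median of -0.40. Of these 43 entries 15 were above 0 in all 3 comparisons and 14 below 0 in all 3, where 21.0% of the gene-targeting sgRNAs with at least 50 counts in PBS were above and 37.8% below. Entries that stayed within 2-fold of PBS in every oxaliplatin library made up 25.6% of the 43 entries with at least 100 counts in PBS, and 14.8% of the 4816 gene-targeting sgRNAs with such counts. The other entries of this set thus departed from PBS by more than 2-fold in at least 1 oxaliplatin library.

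On the CPM scale, PBS lay below all 3 oxaliplatin libraries for 17 of the 50 entries (34.0%), where 35.2% of all sgRNAs did so. For 22 entries (44.0%) PBS lay above all 3, where 38.1% of all sgRNAs did so. With TMM scaling the counts were 22 below (background 43.7%) and 14 above (background 25.8%). Without oxaliplatin replicate 1 there were 22 below (background 48.3%) and 22 above (43.1%), without replicate 2 there were 20 (36.8%) and 23 (40.8%), and without replicate 3 there were 17 (35.8%) and 24 (41.8%). The shares of the entries were near those of the whole library, and which direction prevailed depended on the scaling.

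At the low end of the fold changes was HGLibA_14128, with 286 CPM in PBS and 1.52, 35.6 and 51.1 CPM in oxaliplatin replicates 1, 2 and 3. Every oxaliplatin value lay below PBS, and the mean log2 fold change was -3.55 ± 1.95 (SD, n = 3 oxaliplatin libraries). HGLibA_14111 had 243 CPM in PBS and 14.0, 20.0 and 121 CPM, again with no overlap, and a mean log2 fold change of -2.12 ± 1.25. Its replicate 3 value was several times those of the other oxaliplatin libraries. HGLibA_14121 had 544 CPM in PBS and 29.2, 161 and 129 CPM (-1.91 ± 0.56).

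The next lowest were HGLibA_14141 and HGLibA_14110. HGLibA_14141 had 353 CPM in PBS and 9.58, 188 and 172 CPM in oxaliplatin replicates 1, 2 and 3 (-1.60 ± 1.63), so that replicate 1 alone was far below the rest. HGLibA_14110 had 307 CPM in PBS and 13.7, 129 and 151 CPM (-1.48 ± 1.12), likewise with replicate 1 far below the rest. For none of these 5 entries did edgeR's quasi-likelihood test pass the threshold, and the adjusted p was 0.175 for HGLibA_14128 and between 0.244 and 0.599 for the others.

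Across the whole table edgeR called 3 of the 50 entries (6%) higher with oxaliplatin at an adjusted p under 0.05, where 8.35% of the 7111 sgRNAs tested were called higher. These were HGLibA_14096 and HGLibA_14101 (edgeR adjusted p = 0.0414 for both) and HGLibA_14135 (edgeR adjusted p = 0.0468), each with 1 to 4 counts in PBS. All 3 passed the count filter only through the oxaliplatin libraries, where they were high, so their calls are no independent support for a rise. Their fitted log2 fold changes of 9.83 (SE 1.69), 8.96 (SE 1.67) and 9.18 (SE 2.01) depend on the prior count. The ratios above use no prior count, but their intervals cover counting error only and leave out the spread between libraries. It called 0 entries lower, with HGLibA_14128 alone at an unadjusted p under 0.05, where 0% of all sgRNAs were called lower and 1.45% reached the unadjusted threshold. At the unadjusted threshold 7 entries were higher (14.0%, background 25.8%). The adjusted p of the 47 entries not called ran from 0.0566 to 0.979. With 1 PBS library, the test takes its spread from the oxaliplatin libraries.

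The number of calls depended on the libraries and on the scaling. Without oxaliplatin replicate 1 edgeR called 17 entries higher (34.0%, background 38.3%) and 4 lower (8.00%, background 15.5%), the latter being HGLibA_14111, HGLibA_14121, HGLibA_14128 and HGLibA_14143. HGLibA_14143 had the highest PBS level of all entries, 984 CPM, and 107, 255 and 339 CPM in oxaliplatin replicates 1, 2 and 3. With replicate 1 in the fit the common dispersion was 0.795, and without it 0.111. Without replicate 2 edgeR called HGLibA_14096 and HGLibA_14101 higher (background 8.76%). Without replicate 3 edgeR called 0 entries higher (background 4.16%) and 0 lower (background 0.0141%). In that fit 6 entries (12.0%, background 19.8%) were higher at an unadjusted p under 0.05. With scaling to total counts or to the entries themselves edgeR called 0 entries (background 0% in both). In each of these 7 entries (14.0%) were higher at an unadjusted p under 0.05, with backgrounds of 20.6% and 20.2%. With at least 30 counts in PBS edgeR called 0 entries (background 0%), with 2 higher at the unadjusted threshold (4.55%, background 1.39%). With median-of-ratios scaling (background 7.16%) and without the count filter (8.33%) it called 3 higher. DESeq2 called 7 entries higher (14.0%, background 28.5%), which were the 7 with under 50 counts in PBS, and 0 lower (background 0.408%, with 1 entry at an unadjusted p under 0.05). The shares of entries called higher were not tested against those of all sgRNAs, and these fits share the same libraries. HGLibA_14096, HGLibA_14101 and HGLibA_14135, called in the first fit, and the 7 entries that DESeq2 called all had under 50 counts in PBS. Such scarce sgRNAs were 14.0% of the entries and 31.2% of the gene-targeting sgRNAs.

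Oxaliplatin replicates 2 and 3 gave nearly the same levels for the entries. The median absolute difference between them was 0.29 on the log2(CPM + 1) scale, against 0.43 for the gene-targeting sgRNAs, and 48 of the 50 entries (96.0%) lay within 1 on that scale, against 83.9%. Among sgRNAs with at least 100 counts in PBS these shares were 95.3% and 87.3%. Replicate 1 lay 1.93 from the mean of the other oxaliplatin libraries for the median entry, and was the lowest of the 3 for 39 entries (78.0%, against 74.2% of gene-targeting sgRNAs) and the highest for 8 (16%, against 18.8%). The median SD over the 3 oxaliplatin libraries was 1.23 for the entries and 1.26 for the gene-targeting sgRNAs, and 0.21 and 0.31 without replicate 1. Which class had the larger SD depended on the setting, with 1.13 for the entries against 0.84 for the gene-targeting sgRNAs at a pseudocount of 10 CPM, and 1.23 against 1.13 among sgRNAs with at least 30 counts in every oxaliplatin library.

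HGLibA_14106 was the least steady entry. It had 81.6 CPM in PBS and 1591, 9.53 and 97.2 CPM in oxaliplatin replicates 1, 2 and 3, so that it was the third highest among the entries in replicate 1 and the lowest of all in replicate 2. Its SD over the oxaliplatin libraries was 3.63 on the log2(CPM + 1) scale, and its fold changes of 6.0, -2.71 and 0.49 did not share a sign. HGLibA_14119 (SD 2.63) and HGLibA_14128 (SD 2.39) followed, both with replicate 1 far below the other oxaliplatin libraries. HGLibA_14106 and HGLibA_14111 were the 2 entries that differed by more than 1 on the log2(CPM + 1) scale between replicates 2 and 3, and HGLibA_14103, with 111 and 223 CPM, lay just inside that limit.

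The steadiest entries over the oxaliplatin libraries were HGLibA_14136, HGLibA_14113 and HGLibA_14139. HGLibA_14136 had 156 CPM in PBS and 363, 365 and 362 CPM in oxaliplatin replicates 1, 2 and 3, an SD of 0.0048 on the log2(CPM + 1) scale. HGLibA_14139 had 298 CPM in PBS and 706, 800.1 and 691 CPM (SD 0.11). For both, PBS lay below every oxaliplatin library, yet edgeR gave an adjusted p of 0.438 and 0.541, and of 0.0059 and 0.0101 without replicate 1. The SD of HGLibA_14113, described above, was 0.08.

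The most abundant entries over the 4 libraries were HGLibA_14132, HGLibA_14099 and HGLibA_14139. HGLibA_14132 had 274 CPM in PBS and 3548, 622 and 492 CPM in oxaliplatin replicates 1, 2 and 3, and held 24.6% of the counts of the 50 entries in replicate 1. Its mean log2 fold change was 2.69 ± 2.37, and its edgeR adjusted p was 0.604. HGLibA_14099 had 583 CPM in PBS and 651, 885 and 783 CPM, and was the only entry among the 10 most abundant in all 4 libraries. Of the 10 most abundant entries, oxaliplatin replicates 2 and 3 shared 8, replicate 1 shared 4 with each of them, and PBS shared 1, 4 and 6 with replicates 1, 2 and 3.

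Across the 50 entries, levels in oxaliplatin replicates 2 and 3 went together (Pearson r of log2(CPM + 1) 0.882, Spearman rho 0.931, n = 50), while replicate 1 correlated with them at 0.403 and 0.536. Over the 7092 gene-targeting sgRNAs all 3 correlations were higher. They were 0.959 between replicates 2 and 3, and 0.631 and 0.650 for replicate 1 with each of them. These sgRNAs had larger SDs of log2(CPM + 1), 2.21 and 1.89 in replicates 2 and 3 against 1.35 and 1.01 for the entries. Correlations depend on that spread, so they do not rank the classes by agreement. By median absolute difference between replicates 2 and 3 the entries lay closer, at 0.29 against 0.43. Over the 50 entries, levels in PBS correlated with those in oxaliplatin replicates 1, 2 and 3 at 0.142, 0.288 and 0.407. Over the 43 entries with at least 100 counts in PBS these were -0.11, 0.353 and 0.383, against 0.466, 0.709 and 0.729 over 4816 gene-targeting sgRNAs with such counts. These are descriptions across sgRNAs, which share a library and its depth and are no replicates.

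The 33 entries outside the naming rule, HGLibA_14143 included, lay between 58.2 and 984 CPM in PBS, 12.3 and 890 CPM in oxaliplatin replicate 1, 74.8 and 846 CPM in replicate 2 and 88.2 and 756 CPM in replicate 3. Their mean log2 fold changes ran from -1.45 to 3.10 with a median of -0.13. None passed edgeR's test, with an adjusted p from 0.218 to 0.979.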

How the data were processed

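sgRNA counts were analysed from 4 libraries of HCT116 genomic DNA, 1 with PBS and 3 with 10 µM oxaliplatin. The authors amplified the sgRNA region by 2-step PCR and deposited raw counts per sgRNA, and the series table and the files per library held equal values for 100% of sgRNAs. MAGeCK (version not named) and the mouse build mm10 appear in the submitters' processing notes, although the cells are human, and how reads were matched to sgRNAs is not given. Groups follow the treatment in the labels.

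Levels were CPM, with log2(CPM + 1) for differences. Fold changes used MAGeCK's median ratio per pair of libraries and a pseudocount of 1, without sgRNAs at 0 in both. Single sgRNAs were tested with edgeR 4.0.16 (quasi-likelihood, TMM, Benjamini-Hochberg) in R 4.3.3 over 7111 sgRNAs with at least 10 counts in at least 1 library. All 50 entries passed this filter, but the 6 with fewer than 10 counts in PBS passed it only through the oxaliplatin libraries. DESeq2 1.42.0 was an alternative. Other steps used Python 3.11.15 with pandas 2.3.3 and scipy 1.17.1, and the steps were tested on simulated data. Alternatives changed scaling, pseudocount, count minimum, tool and libraries. A floor of 3 counts was 0.336 CPM in PBS and 0.109, 0.286 and 0.269 CPM in oxaliplatin replicates 1, 2 and 3.

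Entries described singly were those edgeR called, the 5 highest and 5 lowest by mean fold change, those at 0 in PBS, the 3 most and 3 least abundant and the 3 with the largest and smallest SD over the oxaliplatin libraries. HGLibA_14103 and HGLibA_14143 were added after their values were seen. The entries, both enzyme lists and this rule were chosen with earlier results of these data known. Sequence features had been planned but were not analysed here. Of the 32 core essential and 30 tissue-restricted enzymes listed, 30 and 28 were found by symbol.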

Additional observations from a re-analysis of the deposited data

How the results depend on the processing

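The 3 entries that edgeR called higher became 0 with scaling to total counts, 0 with scaling to the entries themselves, 0 with at least 30 counts in PBS and 7 with DESeq2, and 0 to 17 when 1 oxaliplatin replicate was left out (17 without replicate 1, 2 without replicate 2 and 0 without replicate 3). With either of these scalings and with at least 30 counts in PBS, 0% of all sgRNAs were called higher. The shares over all sgRNAs in the other settings are given above. The 0 entries called lower became 0 to 4 when 1 replicate was left out, with 4 without replicate 1. Over all sgRNAs the median edgeR log2 fold change was 0.86 with TMM, 0.75 with median-of-ratios, 0.03 with total counts and -0.08 with scaling to the entries, so signs near 0 depend on the scaling. The median fold change of the entries, 0.08, was -0.70 with total counts, -0.048 with at least 30 counts in PBS, 0.26 with the median over oxaliplatin libraries and 0.19 to 0.24 without 1 replicate. The difference from the gene-targeting sgRNAs, -0.41, was 0.34 with at least 30 counts in PBS, -0.16 with the median over oxaliplatin libraries and -0.38 to -0.22 without 1 replicate. The difference of median levels in PBS, 1.40, was 0.86 over sgRNAs above 0 and 0.66 over those with at least 100 counts in PBS, and in oxaliplatin replicate 1 2.38 became 1.87 with at least 100 counts in PBS. Within narrower bands of PBS counts it was below 0 in 2 cases, at -0.02 in PBS for a middle band with 17 entries and at -0.14 in oxaliplatin replicate 1 for the highest band with 21 entries. These bands and the minimum of 100 counts were set on PBS counts, so they do not compare PBS with oxaliplatin. The median SD over the oxaliplatin libraries ran from 0.21 to 1.43 for the entries and from 0.31 to 1.54 for the gene-targeting sgRNAs without 1 replicate. The 22 entries with PBS above all oxaliplatin libraries were 14 with TMM scaling, and the 17 with PBS below were 22. The minimum of 100 counts, the floor and the alternatives for the range of the oxaliplatin libraries were chosen after seeing the data. No paired analysis was possible because there was 1 PBS library, and its label gives no replicate number. With 1 PBS library, its own spread is unknown, and entries with 0 to 4 counts there have no precise fold change.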
